A study of Mus musculus with 6 samples.

Results

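The 8 genes described here belong to the presynaptic release machinery and were measured in neurons of the preBötzinger complex (preBötC), the medullary site that generates the inspiratory rhythm. They were chosen by gene name, with no threshold on a value, and are 8 of the 49568 gene names measured: Snap25, Stx1a, Vamp1, Vamp2, Cplx1, Cplx2, Unc13a and Unc13c. The data are RNA-Seq profiles of 6 samples, each a pool of 15 neuronal somata drawn by micropipette from a single mouse at postnatal day 2, so that each sample is a different animal. All animals were offspring of a Dbx1CreERT2 driver dam and a Rosa26tdTomato reporter sire, of either sex, and the dams had received tamoxifen during gestation. The 3 Dbx1 samples hold neurons with tdTomato fluorescence, which marks descent from progenitors that expressed Dbx1 when Cre was active, and the 3 non-Dbx1 samples hold neurons without it. In such pools, fewer cells expressing a gene and less RNA per cell cannot be told apart.

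Neurotransmitter leaves a nerve terminal when a synaptic vesicle fuses with the plasma membrane. Fusion is driven by SNARE proteins, in which a vesicle protein (synaptobrevin, also called VAMP) zips together with a syntaxin and SNAP-25 of the plasma membrane. Munc13 proteins, the products of the Unc13 genes, prime vesicles by opening syntaxin, and complexins clamp the partly zipped SNARE complex and help to release it when calcium binds synaptotagmin. Brainstem and spinal circuits are known for using a fast set of these proteins, in which synaptobrevin-1, complexin-1 and synaptotagmin-2 are prominent.

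Levels are deposited RPKM values, in which the reads of a gene are scaled by its exon length and by all reads on genes in that sample. Between 6464675 and 9432958 reads per sample fell on genes, a total recovered from the spacing of the RPKM values. L2FC stands for mean log2(RPKM + 1) of Dbx1 neurons minus that of non-Dbx1 neurons, so a positive value is higher in Dbx1. Its standard error (SE), p and FDR come from limma fitted over 17614 genes, those above 0 in 3 or more samples. Dbx1 itself was listed at 0 in all 6 samples. The 6 neuronal markers summed to between 981 and 1547 RPKM per sample. All 5 erythroid markers were present and summed to 90.3 to 507 RPKM in the Dbx1 samples and 733 to 14058 in the non-Dbx1 samples. The 8 oligodendrocyte lineage markers summed to 29.1 to 78.5 and 73.4 to 548, the highest sum being in non-Dbx1 replicate 1. The 5 endothelial and mural markers summed to 0.0627 to 0.507 and 0.988 to 69.4, and the 5 motor neuron markers to 5.56 to 14.1 and 2.997 to 157, with the highest sum in non-Dbx1 replicate 3. The 6 astrocyte and 5 microglial markers overlapped between the groups, with sums of 34.7 to 81.2 and 0.202 to 13.3 RPKM over the 6 samples. Slc17a6, the vesicular glutamate transporter, ran from 47.2 to 128 RPKM in Dbx1 neurons and from 13.6 to 35.1 in the others, while the 4 glycinergic and GABAergic markers summed to 45.7 to 143 and 97.7 to 143. No marker of these lists was at 0 in every sample, and the part that other cell types played in the values below was not tested.

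All 8 genes had non-zero RPKM in all 6 samples, from 105 to 19264 reads each. No member had an FDR under 0.1, and none had an unadjusted p under 0.05. Over all tested genes, 0.00568% had an FDR under 0.1 and 5.2% an unadjusted p under 0.05. For every one of the 8 genes the values of the 2 groups overlapped. The groups did not overlap for 10.6% of the tested genes, a share that 8 genes are too few to be set against. The L2FC was above 0 for 5 members and below 0 for 3, with a median of 0.32, against a median of 0.01 over all tested genes. With the sign ignored, the medians were 0.46 for the members and 0.33 over all tested genes. The members of largest L2FC, Cplx2, Vamp1 and Cplx1, fell to 0.39, 0.09 and 0.30 without non-Dbx1 replicate 2. Snap25 and Unc13a also fell, and Stx1a, Vamp2 and Unc13c rose. The genes differed far more in level from each other than between the groups, as the plot of the values by sample shows.

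**Figure D1:**
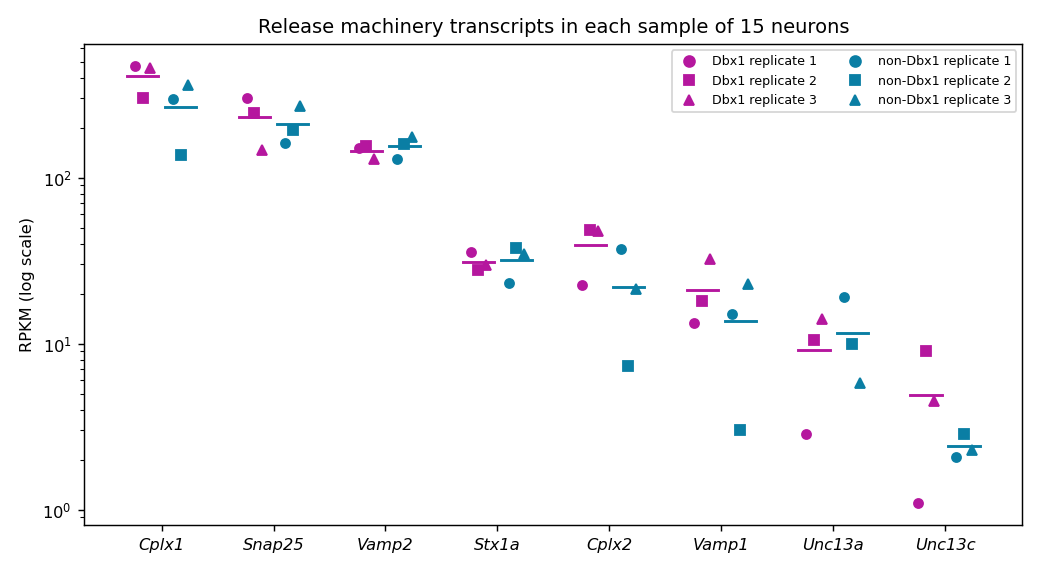
RPKM (log scale) of the 8 release machinery genes in each sample, with Dbx1 samples in magenta, non-Dbx1 samples in blue, marker shapes for the replicate number and horizontal lines at the group means (n = 3). Cplx1, Snap25 and Vamp2 lie above 100 RPKM in every sample, the groups overlap for every gene, and non-Dbx1 replicate 2 (blue square) is lowest for Cplx1, Cplx2 and Vamp1.

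Snap25 encodes the SNARE that brings a pair of helices to the complex. Its locus is on chromosome 2 from 136713453 to 136782428 of GRCm38, on the plus strand. Its RPKM was 301, 244 and 147 for Dbx1 neurons, against 161, 194 and 272 for non-Dbx1 neurons. The values interleaved, and both the highest and the lowest of all 6 were Dbx1 samples. The group means were 231 ± 77.8 and 209 ± 56.7 (SD, n = 3), a difference well inside either spread. Its mean over the 6 samples, 220.003 RPKM, ranked 151 among all genes. L2FC was 0.12 (SE 0.33, 95% interval −0.63 to 0.86, limma FDR = 0.983).

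Stx1a encodes syntaxin-1A, the plasma membrane SNARE that Munc13 acts on. It is annotated on chromosome 5 from 135023482 to 135051100, on the plus strand. RPKM was 35.7, 27.7 and 29.9 for Dbx1 neurons, against 23.1, 37.9 and 34.8 for non-Dbx1 neurons. The non-Dbx1 samples held both the lowest and the highest value. The L2FC was −0.02 (SE 0.27, 95% interval −0.64 to 0.61, limma FDR = 0.998), the smallest of the 8 in size.

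Vamp2 encodes synaptobrevin-2, the main vesicle SNARE of forebrain synapses. The gene spans chromosome 11 from 69088490 to 69092384, on the plus strand. Its RPKM was 151, 156 and 129 for Dbx1 neurons, against 130.4, 159 and 176 for non-Dbx1 neurons. Vamp2 was the steadiest of the 8 genes, with a coefficient of variation of 11.99% over the 6 samples. The median coefficient was 31.1% over the 4424 tested genes with a mean of at least 10 RPKM and 44.9% over the 8 members. The L2FC of Vamp2 was −0.09 (SE 0.22, 95% interval −0.59 to 0.42, limma FDR = 0.980).

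Vamp1 encodes synaptobrevin-1, the paralogue associated with brainstem, spinal and motor neurons. Its locus is on chromosome 6 from 125215551 to 125245964, on the plus strand. RPKM was 13.2, 18.0 and 32.2 for Dbx1 neurons, against 15.1, 3.02 and 22.8 for non-Dbx1 neurons. A single sample, non-Dbx1 replicate 2, lay far below the rest, which spanned 13.2 to 32.2. The highest value was 10.7 times the lowest, against 1.36 times for Vamp2. The L2FC of Vamp1 was 0.85 (SE 0.65, limma FDR = 0.943), and it was 0.09 without non-Dbx1 replicate 2.

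Cplx1 encodes complexin-1, the complexin of fast brainstem synapses, and had the highest level of the members. It is annotated on chromosome 5 from 108518554 to 108550024, on the minus strand. RPKM was 472, 302 and 459 for Dbx1 neurons, against 296, 138 and 362 for non-Dbx1 neurons. The Dbx1 samples held the highest values, but Dbx1 replicate 2 lay below non-Dbx1 replicate 3. The means were 411 ± 94.6 and 266 ± 115 (SD, n = 3), and the mean over all samples, 338 RPKM, ranked 69 among all genes. The L2FC was 0.71 (SE 0.38, 95% interval −0.17 to 1.59, limma FDR = 0.924), and 0.30 without non-Dbx1 replicate 2.

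Cplx2 encodes complexin-2, a close relative that is widespread in forebrain. The gene spans chromosome 13 from 54371349 to 54383917, on the plus strand. RPKM was 22.6, 48.3 and 47.4 for Dbx1 neurons, against 37.1, 7.33 and 21.3 for non-Dbx1 neurons. Again non-Dbx1 replicate 2 was lowest, and Dbx1 replicate 1 fell among the non-Dbx1 values. The means were 39.4 ± 14.6 and 21.9 ± 14.9 (SD, n = 3), a ratio of 1.80. The L2FC of 0.997 was the largest of the 8 (SE 0.55, 95% interval −0.27 to 2.26, limma FDR = 0.924), and was 0.39 without non-Dbx1 replicate 2. The other complexins, known from retina, were almost absent, with Cplx3 at 0.661 RPKM in Dbx1 replicate 1 and listed at 0 elsewhere, and Cplx4 at no more than 0.267.

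Unc13a encodes Munc13-1, the main priming factor of glutamatergic synapses. Its locus is on chromosome 8 from 71624417 to 71671757, on the minus strand. RPKM was 2.86, 10.5 and 14.2 for Dbx1 neurons, against 19.0, 10.01 and 5.80 for non-Dbx1 neurons. The values spread widely within both groups, and the highest was 6.65 times the lowest. L2FC was −0.39 (SE 0.61, 95% interval −1.77 to 1.003, limma FDR = 0.967). Its exons share 495 bases with those of Colgalt1 on the opposite strand, where reads counted without strand cannot be told apart.

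Unc13c encodes Munc13-3, known chiefly from the cerebellum. It is annotated on chromosome 9 from 73479422 to 73968966, on the minus strand. RPKM was 1.10, 9.05 and 4.52 for Dbx1 neurons, against 2.07, 2.86 and 2.30 for non-Dbx1 neurons. The Dbx1 samples held both extremes, with a standard deviation of 3.99 against 0.409 in the non-Dbx1 samples. Its lowest value rested on 105 reads, the fewest of any member in any sample. L2FC was 0.52 (SE 0.67, 95% interval −1.01 to 2.06, limma FDR = 0.960), and was 0.0040 without Dbx1 replicate 2.

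Dbx1 replicate 1 was lowest for both Unc13 genes, and non-Dbx1 replicate 2 was lowest for Vamp1, Cplx1 and Cplx2. Among the tested genes with a mean of at least 10 RPKM, 4412 had a single lowest sample. Of these, 12.1% were lowest in Dbx1 replicate 1 and 14.4% in non-Dbx1 replicate 2. Non-Dbx1 replicate 2 was not the lowest for the other members, being highest of all for Stx1a and second highest for Vamp2. Syt2, which encodes the fast calcium sensor synaptotagmin-2, measured 7.15, 12.9 and 39.2 RPKM for Dbx1 neurons, against 12.7, 3.61 and 14.4 for non-Dbx1 neurons. Syt1, the sensor common in forebrain, measured 33.3, 83.2 and 59.7 RPKM for Dbx1 neurons, against 41.9, 28.9 and 31.8 for non-Dbx1 neurons. Both sensors were lowest in non-Dbx1 replicate 2. Of the 47 pathway genes with a mean of at least 10 RPKM, members and sensors included, 11 were lowest in that sample. In non-Dbx1 replicate 1 it was 13, and in Dbx1 replicate 3 it was 11. The shares over the 4412 genes were 14.4%, 24.4% and 22.0% for these samples in turn. Non-Dbx1 replicate 2 also held the highest sum of endothelial and mural markers, 69.4 RPKM, mostly from Cldn5 at 63.7, while its neuronal marker sum of 1320 lay within the range of the other samples.

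For Vamp1, Cplx1 and Cplx2, the members lowest in non-Dbx1 replicate 2, the stretch from 250 to 31 bases before the start is shown. It is taken from RefSeq (GRCm38.p6) and runs 5′ to 3′ on the gene's strand, with CG dinucleotides in capitals. Whether these sequences bear on the low values was not tested. The 3 regions are chr6:125215331-125215550 on the plus strand, chr5:108550058-108550277 on the minus strand and chr13:54302306-54302525 on the plus strand.
Vamp1: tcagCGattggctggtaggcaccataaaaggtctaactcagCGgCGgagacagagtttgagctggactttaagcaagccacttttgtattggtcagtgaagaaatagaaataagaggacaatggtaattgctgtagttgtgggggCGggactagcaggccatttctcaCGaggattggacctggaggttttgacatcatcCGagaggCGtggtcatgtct
Cplx1: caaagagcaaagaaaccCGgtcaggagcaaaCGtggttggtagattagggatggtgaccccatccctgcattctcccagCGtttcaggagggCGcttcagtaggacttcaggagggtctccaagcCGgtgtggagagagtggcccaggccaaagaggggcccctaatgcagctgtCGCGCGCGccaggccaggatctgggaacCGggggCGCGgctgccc
Cplx2: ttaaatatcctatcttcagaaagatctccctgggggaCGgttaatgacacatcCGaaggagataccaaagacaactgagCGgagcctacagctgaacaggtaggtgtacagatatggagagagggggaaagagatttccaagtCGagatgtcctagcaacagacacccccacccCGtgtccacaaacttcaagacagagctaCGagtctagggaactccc

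These windows held 7, 12 and 6 CG dinucleotides and 48.6%, 62.7% and 49.5% G or C for Vamp1, Cplx1 and Cplx2. The medians over the 32851 promoter windows of the same length were 5 CG dinucleotides and 51.8%. A GC box, spelled GGGCGG on either strand, occurred once in the Vamp1 window and not in the other two, and it occurred in 28.5% of all windows. The cAMP response element TGACGTCA, the letters TTCAGCACC taken from the RE1 element, and TATAAA were each searched on both strands. They occurred in none of the 3 windows, with shares of 1.14%, 0.289% and 9.95% over all windows. Each window ended 31 bases before the start, so a TATAAA nearer to the start was not searched for. RefSeq windows were found for 6 of the 8 genes, all but Snap25 and Vamp2, and those of Stx1a, Unc13a and Unc13c also held a GC box. The RefSeq start of Cplx2 lies far upstream of the GENCODE gene start given above, the window ending at base 54302525 and the gene beginning at 54371349. The Cplx2 window is therefore not the stretch next to that gene start.

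**Figure D2:**
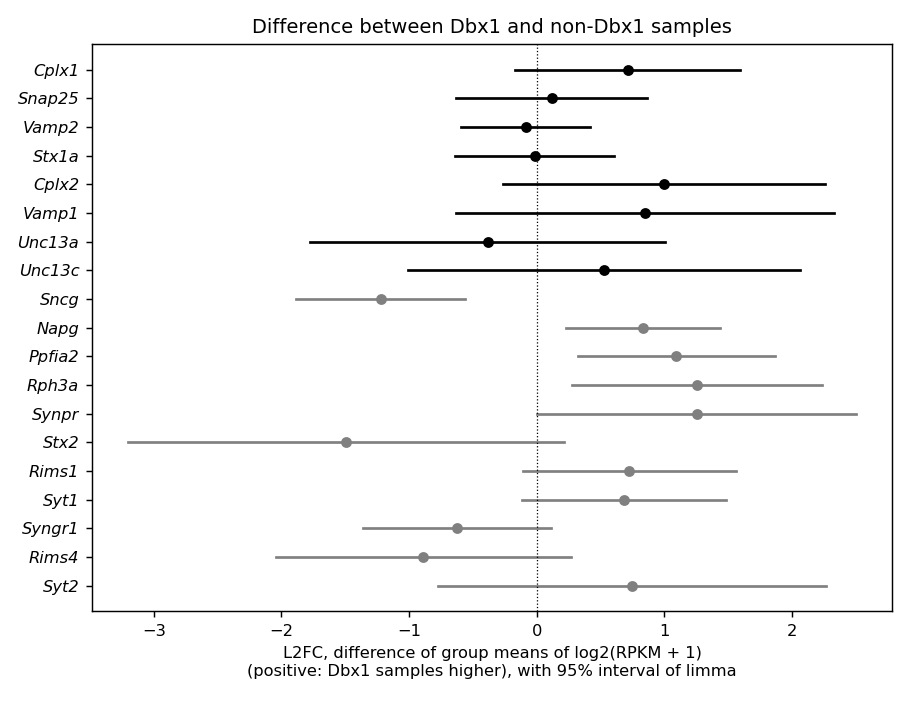
L2FC (points) with limma's 95% interval (lines) for the 8 members in black and 11 other genes of the release pathway in grey, positive where the Dbx1 samples were higher. The interval of every member includes 0, and among the grey genes the intervals of Sncg, Napg, Ppfia2, Rph3a and Synpr do not.

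Paralogues differ in the speed and regulation of release they give, and levels within pairs were compared in the same sample. The first gene of each of 5 pairs was the higher in all 6 samples by deposited RPKM, and the exact two-sided sign-change test of the log2 ratio of (RPKM + 1) gave p = 0.03125 for each pair, the smallest that 6 samples allow, and 0.03125 after Benjamini-Hochberg adjustment over the 6 pairs tested, of which 5 are given here. Vamp2 exceeded Vamp1 by 3.28 ± 1.11 on the log2 scale (SD, n = 6). Vamp1 made up 8.04%, 10.3% and 19.9% of the summed RPKM of the pair for Dbx1 neurons, against 10.4%, 1.86% and 11.4% for non-Dbx1 neurons. All shares but that of non-Dbx1 replicate 2 lay between 8.04% and 19.9%.

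Cplx1 exceeded Cplx2 by 3.54 ± 0.69 on the log2 scale. Cplx2 was 4.57%, 13.8% and 9.35% of the complexin sum for Dbx1 neurons, against 11.1%, 5.05% and 5.54% for non-Dbx1 neurons. In non-Dbx1 replicate 2, where both complexin genes were at their lowest, this share was within the range of the other samples. Unc13a exceeded Unc13c by 1.30 ± 0.84, and Unc13c made up 27.7%, 46.3% and 24.2% of their sum for Dbx1 neurons, against 9.80%, 22.2% and 28.4% for non-Dbx1 neurons. Unc13a and Unc13c came nearest to equality in Dbx1 replicate 2.

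Unc13b, which encodes Munc13-2, was lower still, at 0.869, 1.65 and 2.05 RPKM for Dbx1 neurons, against 1.23, 0.921 and 0.00663 for non-Dbx1 neurons. The last of these rested on 2 reads. Unc13a exceeded it by 2.32 ± 0.72 on the log2 scale, and by 3.31 with a pseudocount of 0.1. Snap23, the broadly expressed relative of Snap25, measured 0.0440, 2.12 and 6.04 and was listed at 0 in non-Dbx1 replicate 1, with 0.307 and 2.75 in the other non-Dbx1 samples. Snap25 exceeded it by 6.60 ± 1.31, and by 8.09 with a pseudocount of 0.1, so the size of this ratio depended on the pseudocount.

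The ratios were then compared between the groups. The difference in mean log2 ratio, Dbx1 minus non-Dbx1, was −0.94 for Vamp2 to Vamp1, −0.29 for Cplx1 to Cplx2, −0.91 for Unc13a to Unc13c, −0.63 for Snap25 to Snap23 and −0.99 for Unc13a to Unc13b. The Vamp2 to Vamp1 difference was −0.15 without non-Dbx1 replicate 2, and that of Unc13a to Unc13c was −0.43 without non-Dbx1 replicate 1 and −0.59 without Dbx1 replicate 2. No difference passed the exact two-sided permutation test, with p between 0.10 and 0.70 and adjusted p between 0.60 and 0.84, and 3 samples against 3 cannot go below p = 0.10. The ratio of Unc13a to Unc13b reached that smallest p, at 1.83 ± 0.68 for Dbx1 neurons, against 2.81 ± 0.33 for non-Dbx1 neurons. With a pseudocount of 0.1 its difference was −2.002 and that of Snap25 to Snap23 was −1.24.

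**Figure D3:**
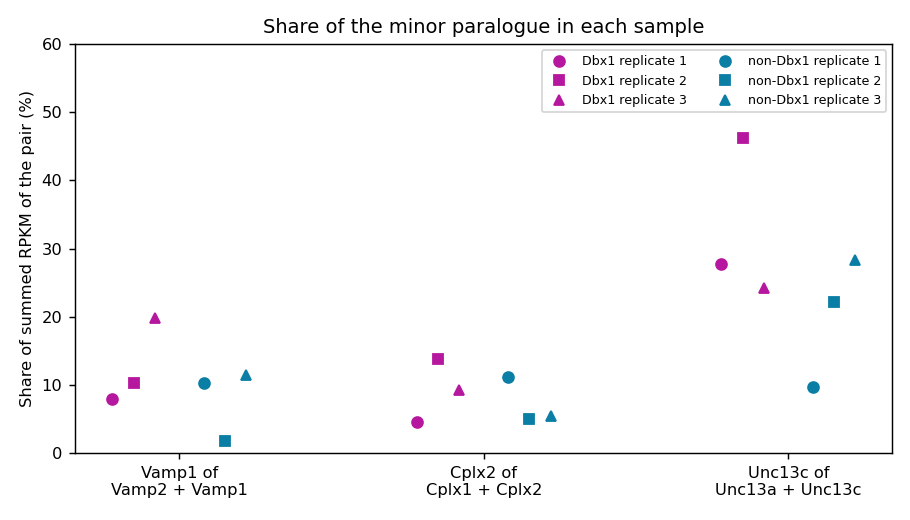
Share of the minor paralogue in the summed RPKM of a pair, in percent, for each Dbx1 (magenta) and non-Dbx1 (blue) sample. Vamp1 ranges from 1.86% to 19.9%, Cplx2 from 4.57% to 13.8% and Unc13c from 9.80% to 46.3%, with overlapping groups in each pair.

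Levels between genes rest on the exon length that RPKM is divided by, and the deposited values let this length be recovered. It was the sum of all distinct exons of a gene in GENCODE vM21, overlapping exons counted again, for 46.9% of the genes with reads and a position, Vamp1, Cplx2 and Unc13c among them. The recovered length was longer than the merged exon length, in which each base counts once, for 49.8% of the genes. For Stx1a it was 6507 bases against 2666 merged and 2167 in the longest transcript, so that its RPKM was 3.003 times lower than with the longest transcript. The ratio to the longest transcript was 2.36 for Vamp1, 2.32 for Vamp2, 1.57 for Unc13a, 1.54 for Snap25, 1.37 for Unc13c and 1.20 for Cplx1, while all lengths of Cplx2 were equal. Length is the same in every sample, so it bears on the order of genes and not on the ratio between samples.

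By deposited RPKM the means over the 6 samples ran from Cplx1 (338), Snap25 (220.003) and Vamp2 (150.5) through Stx1a (31.5), Cplx2 (30.7), Vamp1 (17.4) and Unc13a (10.4) to Unc13c (3.65). Snap25 lay above Vamp2, Vamp2 above Stx1a and Unc13a above Unc13c in all 6 samples. Cplx1 lay above Snap25 and Cplx2 above Vamp1 in 5 of the 6, Vamp1 above Unc13a in 4 and Stx1a above Cplx2 in 3, so those neighbours were not separated in every sample. With the longest transcript as length, Vamp2 at 349 and Snap25 at 339 changed places, each being the higher in 3 samples. Vamp1 at 41.0 also moved above Cplx2 at 30.7, again in 3 of the 6 samples. Stx1a then stood at 94.6. Cplx1 stayed highest, at 405, and Unc13c lowest, at 4.998, under both other lengths.

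For the 5 pairs the direction and the call held with the longest transcript (exact sign-change test, adjusted p = 0.03125) and with merged exons (adjusted p = 0.0375).

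**Figure D4:**
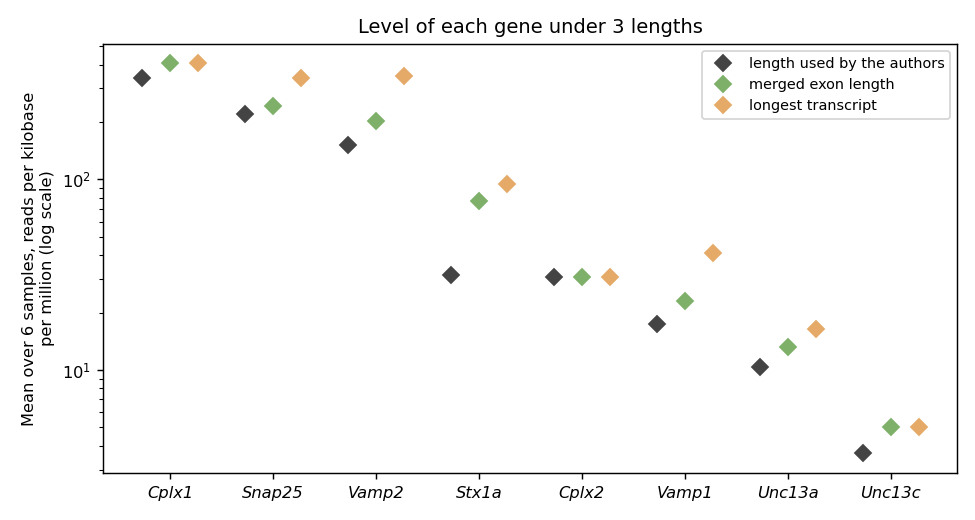
Mean level over the 6 samples (log scale, RPKM rescaled to each length) of each gene with the length recovered from the deposited RPKM, the merged exon length and the longest transcript of GENCODE vM21. Of the members Stx1a moves most, from 31.5 to 94.6, while Cplx2 keeps the same 30.7 under all 3 lengths.

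The other genes of the release pathway were taken from a list of 84, in 11 classes by function together with the members. Of these, 81 could be tested and 0 had an FDR under 0.1 in limma, while 4 had an unadjusted p under 0.05 with the Dbx1 samples higher and 1 with the non-Dbx1 samples higher. The 5 genes are 6.17% of the 81, beside 5.2% of all tested genes, 2.73% in the first direction and 2.48% in the second. The groups stood apart for 5 genes, of which 4 had the higher values in Dbx1 neurons and 1 in non-Dbx1 neurons, beside 5.35% and 5.24% of all tested genes. The median L2FC of the 81 was 0.11, with 47 above 0 and 34 below.

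Among the partners that recycle SNAREs, Nsf, the ATPase that takes spent SNARE complexes apart, measured 51.9 ± 3.82 RPKM for Dbx1 neurons, against 48.9 ± 13.1 for non-Dbx1 neurons (SD, n = 3). Napa, which encodes the adaptor alpha-SNAP, was the highest of the recycling genes at 72.2 RPKM over the 6 samples. Neither had groups that stood apart. Napg, which encodes gamma-SNAP, measured 34.7, 30.7 and 25.8 for Dbx1 neurons, against 16.4, 19.4 and 14.1 for non-Dbx1 neurons. Every Dbx1 value lay above every non-Dbx1 value, with an L2FC of 0.83 (SE 0.26, limma FDR = 0.870).

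The gene of lowest FDR in the list was Sncg, which encodes gamma-synuclein, a relative of the SNARE chaperone alpha-synuclein. Its RPKM was 265, 264 and 208 for Dbx1 neurons, against 397, 678 and 691 for non-Dbx1 neurons. Each non-Dbx1 value was above each Dbx1 value, and the L2FC was −1.22 (SE 0.29, limma FDR = 0.708). The 5 motor neuron markers summed to 10.4, 5.56 and 14.1 RPKM in the Dbx1 replicates and 2.997, 27.8 and 157 in the non-Dbx1 replicates, and their part in the level of Sncg was not tested.

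In the active zone, the protein scaffold where vesicles dock, Ppfia2 and Rims1 had groups that did not overlap. Ppfia2, which encodes liprin-alpha-2, measured 24.2, 14.3 and 25.99 RPKM for Dbx1 neurons, against 7.485, 10.98 and 9.53 for non-Dbx1 neurons (L2FC 1.09, SE 0.34, limma FDR = 0.859). Its exons share 2436 bases with Acss3 on the opposite strand. Rims1, the scaffold that binds Munc13 and Rab3, measured 12.8, 10.01 and 19.9 and 9.39, 6.52 and 8.05, an L2FC of 0.72 (SE 0.36, limma FDR = 0.913). Rab3a, the vesicle GTPase and the highest of this class, measured 246 ± 37.6 and 185 ± 38.9 (SD, n = 3).

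Rph3a encodes rabphilin-3A, which binds Rab3 and SNAP-25. It measured 28.8, 27.6 and 12.3 RPKM for Dbx1 neurons, against 11.9, 5.38 and 9.13 for non-Dbx1 neurons. The groups did not overlap, though Dbx1 replicate 3 exceeded non-Dbx1 replicate 1 by little (L2FC 1.26, SE 0.43, limma FDR = 0.907). Synpr, the vesicle protein synaptoporin, measured 12.4, 7.65 and 10.8 and 8.95, 2.08 and 2.285, with overlapping groups and an L2FC of 1.25 (limma FDR = 0.912). The vesicle protein of highest level was Syngr3, at 298 ± 41.4 and 243 ± 53.3 (SD, n = 3).

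The remaining genes of low p had overlapping groups. Syt1 had an L2FC of 0.69 (limma FDR = 0.917), Syngr1 one of −0.62 (limma FDR = 0.921), and Stx2, a syntaxin of low level here, one of −1.49 (limma FDR = 0.912), with RPKM of 0.0288, 2.75 and 0 against 2.69, 7.90 and 1.63. Rims4, a short relative of Rims1, measured 3.47, 5.51 and 10.8 RPKM for Dbx1 neurons, against 14.3, 6.67 and 17.6 for non-Dbx1 neurons, with an L2FC of −0.89 (SE 0.51, limma FDR = 0.924). Syt2, named as the partner of the fast set, had an L2FC of 0.75 (limma FDR = 0.951), which was 0.11 without Dbx1 replicate 3, 0.20 without non-Dbx1 replicate 2 and 1.26 without Dbx1 replicate 1. By class, the median L2FC ranged from −0.20 over the 7 regulators of syntaxins to 0.85 over the 2 tested complexins, and the plot of the pathway by class shows genes on both sides of 0 in every class but the complexins.

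**Figure D5:**
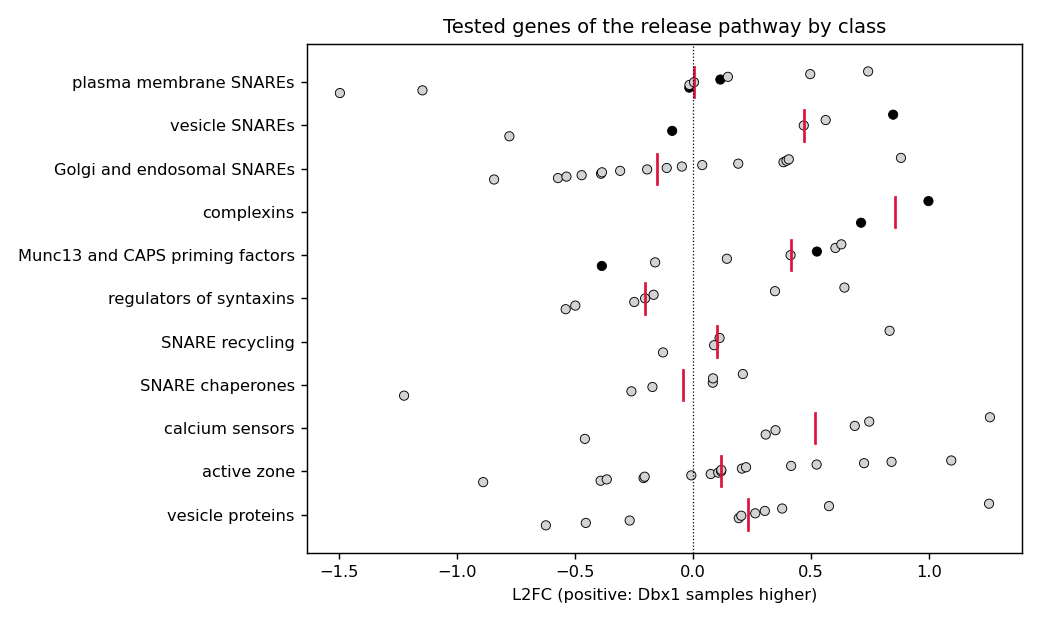
L2FC of the 89 tested genes of the release pathway by class (black points members, grey points other genes, red bars class medians), positive where the Dbx1 samples were higher. Values run from −1.49 (Stx2) to 1.26 (Rph3a), and both tested complexins, Cplx1 and Cplx2, lie above 0.

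To place each member among all genes, the gene with the most similar course over the 6 samples was sought, as the smallest root mean square difference in log2(RPKM + 1) after centring, among 4417 genes with a mean of at least 10 RPKM. For Snap25 it was Psma1, a proteasome subunit, at 0.075, and for Stx1a it was Mlf2 at 0.048. For Vamp2 it was Tsg101, of endosomal sorting, at 0.056, and for Cplx1 it was Zfp804a at 0.061. Vamp1 came closest to Dand5 at 0.15, Cplx2 to Zc3h8 at 0.26, Unc13a to Chmp4b at 0.18 and Unc13c to Ninj1 at 0.26. The median difference over all candidates was between 0.41 for Vamp2 and 1.07 for Vamp1. These are descriptions over 6 samples and many candidates.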

How the data were processed

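The authors aligned single-end reads of amplified complementary DNA to mm10 with TopHat2 and sorted them with SAMtools. Reads were counted per gene name without strand with HTSeq. The deposited RPKM used the exon length of an Ensembl annotation, with no scaling between samples beyond the total reads on genes of each. The annotation release is not given in the sources used here. The 8 genes, the pathway list and the tests were chosen with earlier results of these data known.

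Reads on genes were recovered as the whole number that makes low RPKM values whole reads, with lengths of GENCODE vM21 (GRCm38, the same assembly as mm10), which matched 47214 of 49568 names (95.3%). Reads per gene are then the smallest whole numbers within 1e-05 reads, or 3e-09 of the reads, in every sample. They made up 99.46% to 99.57% of the totals, may understate the true number by a whole factor, and carry amplification noise that counting error does not cover. The p-values measure the spread between these 6 animals.

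The authors tested counts with DESeq2. The main test here was limma 3.58.1 in R 4.3.3 on log2(RPKM + 1), with a mean-variance trend, genes above 0 in at least 3 samples, Benjamini-Hochberg FDR and a threshold of 0.1. Paralogue pairs were tested by exact sign changes over 6 samples, with a threshold of 0.05, and their ratios between groups by exact permutation. Both were two-sided and run in Python 3.11.15 with numpy 2.4.6 and scipy 1.17.1. The fit was tested on data simulated with 200 changed genes, in equal parts by 2 and by 4 on the log2 scale. At FDR under 0.1 it recovered 25 of the former and 72 of the latter, with 5 false calls. An FDR above 0.1 therefore does not show equal levels. Named genes were all members, their direct relatives, the highest of each class of the pathway, the 10 of lowest p, and for each member the gene of most similar course. Alternatives were a pseudocount of 0.1, all genes above 0 in any sample, a minimum RPKM of 1 in 3 samples, size factors, quantile normalization, no trend, the replicate block, each sample left out, voom on recovered reads (10 or more in 3 samples), each group alone, the ratio of means and the longest transcript. Merged exon length was added after seeing the data. Some genes of the pathway list and 1 paralogue pair are not reported here.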

Additional observations from a re-analysis of the deposited data

How the results depend on the processing

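No alternative gave a member or a listed pathway gene an FDR under 0.1 in limma. Between 0 and 1 members and 4 to 7 listed genes had an unadjusted p under 0.05. Over all genes the count was 1, and 0 to 3 in the alternatives. Changed filters, the fit without a trend and the replicate block leave L2FC as it was, so those values could not change direction. Most of the 11 other named genes were picked for a low p in these data, which makes a change of direction less likely. With these included, 110 of 120 alternative L2FC values of the members kept their direction, as did all 154 of the 11 others. The exceptions were Stx1a, at 0.017 under quantile normalization and from −0.23 to 0.12 with single samples left out, Snap25 (−0.11 to 0.41), Vamp2 (−0.21 to 0.0086) and Unc13a (−0.78 to 0.21). For Stx2, voom gave −5.09. With the replicate block, 0 members and 0 listed genes passed. Equal numbers did not pair the samples, with correlations of deviations of −0.11, 0.03 and −0.05, and no pair ratio changed its call, where 3 pairs cannot go below p = 0.25.

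Pair levels could not pass 0.05 with 5 samples, where p is at least 0.0625. Their log2 ratios then were 2.87 to 3.54 for Vamp2 to Vamp1, 3.38 to 3.73 for Cplx1 to Cplx2, 1.02 to 1.52 for Unc13a to Unc13c, 6.29 to 7.05 for Snap25 to Snap23 and 2.15 to 2.57 for Unc13a to Unc13b. With single samples left out, differences in ratio between the groups ran from −1.36 to −0.15 for Vamp2 to Vamp1, −0.75 to 0.10 for the complexins, −1.27 to −0.43 for Unc13a to Unc13c, −1.57 to 0.32 for Snap25 to Snap23 and −1.23 to −0.60 for Unc13a to Unc13b.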

Other observations

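Some SNARE genes outside the classical release set had levels as high as those of the members. Snap47, a SNAP-25 relative without the palmitoylated linker, measured 357, 271 and 171 RPKM for Dbx1 neurons, against 224, 247 and 219 for non-Dbx1 neurons, and its mean of 248 exceeded the 220.003 of Snap25. Its exons share 307 bases with Jmjd4 on the opposite strand. Stx7, an endosomal syntaxin, measured 165 ± 69.9 and 167 ± 23.0 (SD, n = 3), which was above Stx1a by deposited RPKM in all 6 samples. The recovered length was 2500 bases for Stx7, against 4473 merged, and 6507 for Stx1a, against 2666. The size of this difference therefore depends on the length used. Vamp7, named after its values were seen, was listed at 0 in all 6 samples. Its name matched no gene of the annotation used here, so the 0 cannot be read as absence of its RNA. Cadps, which encodes the dense-core vesicle priming factor CAPS1, was the highest of the priming genes, with a mean of 39.6 RPKM against 10.4 for Unc13a. Vamp3, cellubrevin, measured 12.9, 10.6 and 16.0 RPKM for Dbx1 neurons, against 16.5, 17.2 and 1.67 for non-Dbx1 neurons, and Unc13d was at most 0.806.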
